A study of Mus musculus with 12 samples.

Results

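Macrophage and monocyte genes were followed through primary mammary tumours grown from 4 mouse carcinoma lines. The members were 37 gene symbols that mark these cells or their activation states, taken where array probesets carried that symbol alone and at least 3 such probesets existed. This left 36 of the 37 genes, among 15025 genes measured in the same way. Clec10a, a lectin of macrophages, was not analysed here, because the older symbol under which the array lists it belongs to 2 genes in RefSeq. The 36 genes were read by 473 of the 207232 probesets that carry a single gene symbol.

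The tumours came from the lines 4T1, 4T07, 168FARN and 67NR, with 3 arrays per line. The lines share an origin and differ in spread: 4T1 cells complete metastasis, 4T07 cells reach the lung without visible nodules, 168FARN cells reach lymph nodes, and 67NR tumours stay at the primary site. Per the labels, the cells went into a mammary fat pad of BALB/c mice, all females of 3 months, and no further treatment is named. There were 13 mice for 4T1, 15 for 4T07, 11 for 168FARN and 8 for 67NR, and tumours were excised once the group's average reached 1 to 2 cm. Each group is a graft of 1 cultured line into an immune-competent host, so a line and its metastatic behaviour cannot be told apart. Nothing states that the 3 arrays of a line came from different animals, so the p-values cover only the spread among these arrays, which could be technical.

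Macrophages arise from embryonic precursors or from blood monocytes, and in tumours most are thought to be replenished by monocytes. The transcription factor PU.1, encoded by Spi1, sets their lineage, and signalling through the receptor Csf1r keeps them alive. Tumour macrophages clear dying cells with scavenger receptors, make complement C1q, bind antibodies through Fc receptors, and break down arginine either with arginase or with inducible nitric oxide synthase. In bulk tumour RNA, fewer macrophages and less RNA per macrophage cannot be told apart, and several of these genes are also active in neutrophils, dendritic cells or tumour cells.

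Levels are log2 signals, the median over the probesets of a gene, given per array in the order of the labels' replicate numbers or as mean ± SD with n = 3 arrays. Levels of different genes cannot be set against each other on this scale. The 12 arrays had medians of 7.21 to 7.57 over all probesets. A level under 5.08, which 95% of 335 olfactory receptor genes do not exceed, counted as background, and the size of a change into or out of it is not measured. Lines were compared with limma over all 15025 genes, and a gene was called at a Benjamini-Hochberg adjusted p under 0.05. The 168FARN arrays differed in the 14 skeletal muscle genes measured, whose mean level was 5.67, 7.84 and 8.76 on its arrays 1, 2 and 3, and 5.47 to 6.32 on all arrays from 4T1, 4T07 and 67NR.

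A level above background does not show which cells made the RNA, so it is no test of the group's label. Most measured genes lie above that range: Marco, averaging 5.12 over all arrays, stood at the 20.8th percentile of all genes. Of the 36 genes, 32 had a mean level above the background range in every line. The exceptions were Vsig4, Marco, Chil3 and Retnla, of which Vsig4 was in that range only in 4T07 and Marco only in 67NR, while Chil3 and Retnla left it only in 4T07. The mean level of the 36 genes was 8.94 to 9.08 in 4T1, 8.71 to 8.99 in 4T07 and 8.56 to 8.58 in 168FARN, against 8.92 to 9.07 in 67NR. The 3 168FARN arrays lay below all 9 arrays of the other lines.

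By the F-test over the lines, 25 of the 36 genes differed, and 16 of these had line means at least 1 apart on the log2 scale. Among all genes, 42% differed. The share of all genes that also had line means at least 1 apart was not counted, so the 16 are only a choice of genes to describe. The genes did not move as a block: 67NR had the highest mean for 12 of them (33.3%, beside 26.7% of all genes) and 4T1 for 10 (27.8%, beside 19.8%). It was highest in 4T07 for 9 (25%, beside 17.2%) and in 168FARN for 5 (13.9%, beside 36.2%). The lowest mean was in 168FARN for 19 genes, in 4T07 for 12, in 67NR for 3 and in 4T1 for 2. Among all genes, 24.6% were lowest in 168FARN, 24.1% in 4T07, 25.3% in 67NR and 26% in 4T1.

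**Figure D1:**
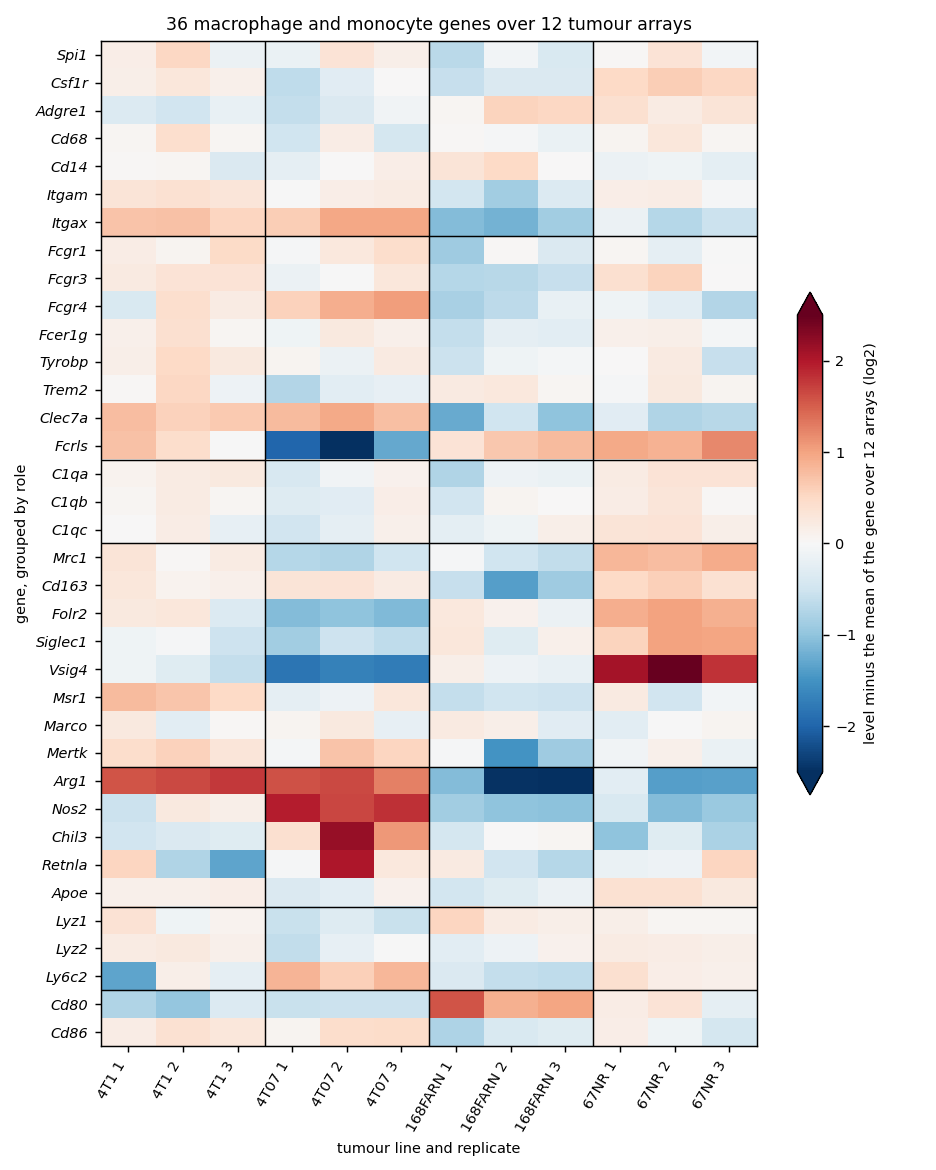
Level of each of the 36 genes (rows, grouped by role) on each of the 12 arrays (columns, by line and replicate number), as the log2 level minus that gene's mean over all arrays. Arg1 stands out as high in 4T1 and 4T07 tumours, Nos2 as high in 4T07 tumours, Vsig4 and Fcrls as low there, and Vsig4 as high in 67NR tumours; colours end at 2.5 in either direction.

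Against 67NR, 11 members were called in 4T1 tumours, 5 higher and 6 lower, beside 22.3% of all genes (9.38% higher and 13% lower). In 4T07 tumours 16 were called, 6 higher and 10 lower, beside 23.7% of all genes (11% and 12.7%). In 168FARN tumours 13 were called, 1 higher and 12 lower, beside 24.7% (13.5% and 11.2%). In that last comparison 8 of 11 endothelial genes (72.7%) and 4 of 15 T and NK cell genes (26.7%) were lower too, and their part in it was not tested. These 3 comparisons share the 67NR arrays. The members' median change was 0.04 in 4T1, -0.09 in 4T07 and -0.40 in 168FARN, while the median over all genes was -0.04, -0.04 and 0.04. The share called was 30.6% of members in 4T1, 44.4% in 4T07 and 36.1% in 168FARN.

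Against 168FARN, more members were called higher than lower. In 4T1 tumours 16 were higher and 2 lower, beside 11.9% and 19.3% of all genes, with a median change of 0.48 against -0.08 for all genes. In 4T07 tumours 14 were higher and 8 lower, beside 11.4% and 16.8% of all genes, with a median change of 0.25 against -0.09 for all genes. The members' shares higher were thus 44.4% in 4T1 and 38.9% in 4T07. Other lists shared this: of 12 pan-leukocyte genes, 9 were higher (75%) in 4T1 and 8 (66.7%) in 4T07, with 1 lower in each. Of 15 T and NK cell genes, 3 were higher (20%) in 4T1 and 9 (60%) in 4T07, with none lower. Among 14 neutrophil genes, 8 were higher (57.1%) in 4T1 and 11 (78.6%) in 4T07, with none lower. Among 12 dendritic cell genes, 5 were higher (41.7%) in 4T1, with 1 lower, and 3 (25%) in 4T07. Endothelial genes had 4 of 11 higher (36.4%) in 4T1, but 1 (9.09%, near the share of all genes) in 4T07. Mast cell and skeletal muscle genes had none higher, and 7 of 12 fibroblast genes were lower in each, beside 4 higher in 4T1 and 3 in 4T07. The part of other cells in the members' counts was not tested. Between 4T1 and 4T07, 4 members were higher and 3 lower in 4T1, beside 0.552% and 1.82% of all genes. That comparison called 19.4% of the members and 2.38% of all genes, but only 4 members (3 higher, 1 lower) without 4T07 array 2, 4T1 array 1 or 4T1 array 3.

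With array 1 as the only 168FARN array, 8 of the 13 calls against 67NR were kept, 14 of the 22 in 4T07 against 168FARN, and 12 of the 18 in 4T1 against 168FARN. This fit takes the spread of 168FARN to equal that seen in 4T1, 4T07 and 67NR. It has fewer arrays, and over all genes too it called fewer than the fit with all arrays, so lost calls are not particular to members. Against 67NR the calls lost were Itgam, Itgax, Folr2, Siglec1 and Arg1. In 4T07 against 168FARN they were Adgre1, Itgam, Fcgr3, Fcer1g, Trem2, Mertk, Chil3 and Ly6c2, and in 4T1 against 168FARN they were Csf1r, Adgre1, Mrc1, Mertk, Nos2 and Apoe. All 19 of these changes kept their sign. With that array alone 7 of them were as large or larger: Itgax against 67NR, Fcgr3, Fcer1g, Trem2 and Chil3 in 4T07, and Csf1r and Apoe in 4T1. Another 6 were smaller by over 1.5 times: Arg1 against 67NR (-0.08, against -1.16 with all arrays), Mertk in 4T1 (0.48, against 1.25) and 4T07 (0.44, against 1.21), Adgre1 in both 4T1 and 4T07, and Mrc1 in 4T1. The other 6 were smaller by less than that. The part of skeletal muscle in the 168FARN values was not tested further.

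**Figure D2:**
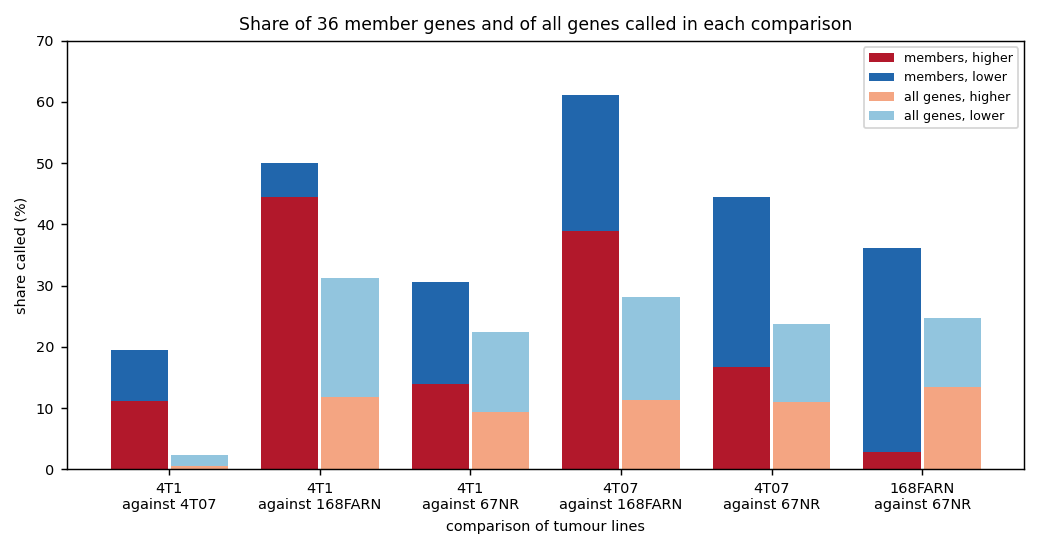
Share of the 36 macrophage and monocyte genes (dark bars) and of all 15025 genes (pale bars) called at adjusted p under 0.05 in each of the 6 comparisons, split into higher and lower in the line named first; the vertical axis is in percent. The members' bar is taller in every comparison, 61.1% against 28.3% in 4T07 against 168FARN. The pale bars include genes in the background range: with dim probesets left out, 4494 of 12533 genes were called in 4T07 against 168FARN. Members were chosen with earlier results of these data known, so the difference in height is not a test.

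Spi1, Cd68 and Cd14 were not called in any pair of lines with all 12 arrays and median levels, but each was called in some pair under other settings. Spi1, which encodes PU.1, averaged 9.41 ± 0.33 in 4T1, 9.34 ± 0.26 in 4T07 and 8.85 ± 0.30 in 168FARN, against 9.33 ± 0.21 in 67NR. In 4T1 against 168FARN its change was 0.56 (SE 0.21, adjusted p = 0.0622), and it was called higher there under 8 of 21 alternatives, among them the probeset mean (adjusted p = 0.0117), quantile normalization (adjusted p = 0.0212) and equal array medians (adjusted p = 0.024). In 168FARN against 67NR its change was -0.48 (SE 0.21, adjusted p = 0.127), and it was called lower under 2 of them, the probeset mean (adjusted p = 0.0199) being one. In 4T07 against 168FARN its change was 0.49 (SE 0.21, adjusted p = 0.11), also called higher under 2. Cd68, a lysosomal membrane protein of macrophages, averaged 10.84 ± 0.22 in 4T1, 10.42 ± 0.38 in 4T07 and 10.60 ± 0.10 in 168FARN, against 10.80 ± 0.13 in 67NR, with a 95% interval for 4T1 minus 67NR of -0.37 to 0.45 and a call only in 4T07 against 67NR under 2 alternatives. Cd14, the co-receptor for bacterial lipopolysaccharide, averaged 8.61 ± 0.23 in 4T1, 8.68 ± 0.19 in 4T07 and 8.97 ± 0.25 in 168FARN, against 8.53 ± 0.07 in 67NR, and was called only in 168FARN against 67NR under 2 alternatives.

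Promoters of 4 members are shown because they belong to genes that moved in opposite directions between 4T07 and 67NR: Vsig4 and Mrc1 were lower in 4T07, and Clec7a and Fcgr4 higher. Each run is the 150 bases before a transcription start, 5′ to 3′ on the strand of the gene, from RefSeq on GRCm38.p6. Capitals mark GAGGAA or its reverse complement TTCCTC, the core of sites that PU.1 is known to bind.
Vsig4 (chrX:96293439-96293588, minus strand): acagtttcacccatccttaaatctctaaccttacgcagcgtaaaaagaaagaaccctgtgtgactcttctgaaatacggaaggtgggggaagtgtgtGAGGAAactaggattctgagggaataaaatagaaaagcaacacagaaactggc
Mrc1 (chr2:14229264-14229413, plus strand): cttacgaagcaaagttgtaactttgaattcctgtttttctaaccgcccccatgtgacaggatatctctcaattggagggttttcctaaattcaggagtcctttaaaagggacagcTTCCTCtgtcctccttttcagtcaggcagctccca
Clec7a (chr6:129472786-129472935, minus strand): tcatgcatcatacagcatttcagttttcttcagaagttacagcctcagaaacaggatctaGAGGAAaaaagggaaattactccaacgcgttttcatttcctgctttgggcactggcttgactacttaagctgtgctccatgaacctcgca
Fcgr4 (chr1:171018776-171018925, plus strand): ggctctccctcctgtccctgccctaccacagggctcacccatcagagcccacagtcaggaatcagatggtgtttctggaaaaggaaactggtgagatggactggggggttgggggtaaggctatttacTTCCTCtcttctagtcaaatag
All 4 promoters shown carry the core in this stretch. They are a choice among the 16 members called in 4T07 against 67NR, so nothing follows from them for lower or higher genes in general. In windows from 250 bases before to 50 after the start, at least 1 window held the core on either strand in 16 of the 25 members with a RefSeq window (64%), beside 30.7% of the 12017 measured genes with a window. The longer form GAGGAAGT, which contains the core, was in 4 of the 25 members (16%), beside 3.41% of those genes. A match is a string of letters and does not show binding.

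Csf1r, the receptor for the macrophage growth factor CSF1, averaged 10.95 ± 0.09 in 4T1, 10.47 ± 0.33 in 4T07 and 10.34 ± 0.12 in 168FARN, against 11.31 ± 0.07 in 67NR. It was lower than in 67NR in 4T07 (log2 change -0.84, SE 0.16, adjusted p = 0.00215) and in 168FARN (log2 change -0.97, SE 0.16, adjusted p = 0.000863), with all 30 probesets lower in both. In 4T1 the change was -0.35 and not called (adjusted p = 0.154), and 4T1 was higher than 168FARN (log2 change 0.62, SE 0.16, adjusted p = 0.0119). Adgre1, which encodes the F4/80 antigen of mouse macrophages, followed another order, at 9.11 ± 0.14 in 4T1, 9.10 ± 0.25 in 4T07 and 9.81 ± 0.29 in 168FARN, against 9.76 ± 0.10 in 67NR. Both lines that reach the lung were lower than 67NR, 4T1 (log2 change -0.65, SE 0.18, adjusted p = 0.0175, a call lost without 4T1 array 1, 4T1 array 2 or 67NR array 1 with adjusted p up to 0.0703) and 4T07 (log2 change -0.66, SE 0.18, adjusted p = 0.0153, a call lost without 4T07 array 1 or 67NR array 1 with adjusted p up to 0.0582), with all 26 probesets lower in each. They were lower than 168FARN too, 4T1 (log2 change -0.70, SE 0.18, adjusted p = 0.00813) and 4T07 (log2 change -0.72, SE 0.18, adjusted p = 0.00833). With array 1 as the only 168FARN array, the change was -0.38 in 4T1 (adjusted p = 0.315) and -0.39 in 4T07 (adjusted p = 0.321). 168FARN and 67NR did not differ beyond their spread for this gene.

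Both integrin alpha chains measured were lowest in 168FARN. Itgam, the CD11b chain shared by monocytes, macrophages and neutrophils, averaged 10.18 ± 0.04 in 4T1, 9.96 ± 0.11 in 4T07 and 9.28 ± 0.28 in 168FARN, against 9.95 ± 0.11 in 67NR. It was lower in 168FARN than in 67NR (log2 change -0.67, SE 0.15, adjusted p = 0.00668), and higher than in 168FARN in 4T1 (log2 change 0.90, SE 0.15, adjusted p = 0.00067), with all 31 probesets in 1 direction in both comparisons. It was also higher in 4T07 than in 168FARN (log2 change 0.68, SE 0.15, adjusted p = 0.00507). Itgax, the CD11c chain of dendritic cells and some macrophages, measured 8.49, 8.51 and 8.30 in 4T1, 8.38, 8.75 and 8.73 in 4T07 and 6.69, 6.60 and 6.90 in 168FARN, against 7.62, 7.07 and 7.23 in 67NR. The 6 arrays of the lung-reaching lines lay above all 6 others. Against 67NR it was higher in 4T1 (log2 change 1.13, SE 0.17, adjusted p = 0.000361) and in 4T07 (log2 change 1.31, SE 0.17, adjusted p = 0.000102), and lower in 168FARN (log2 change -0.58, SE 0.17, adjusted p = 0.0263, a call lost without 168FARN array 1, 168FARN array 2 or 67NR array 1 with adjusted p up to 0.127). Against 168FARN it was higher in 4T1 (log2 change 1.70, SE 0.17, adjusted p = 9.35e-06) and in 4T07 (log2 change 1.89, SE 0.17, adjusted p = 4.39e-06). Between 4T1 and 4T07 it was not called.

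Complement C1q has 3 chains, made in tumours mainly by macrophages. C1qb averaged 12.27 ± 0.09 in 4T1, 12.01 ± 0.27 in 4T07 and 12.03 ± 0.29 in 168FARN, against 12.34 ± 0.14 in 67NR, and C1qc 10.46 ± 0.20 in 4T1, 10.27 ± 0.30 in 4T07 and 10.40 ± 0.20 in 168FARN, against 10.74 ± 0.11 in 67NR, with no pair called for either. With the probeset mean, C1qc was lower than in 67NR in 4T07 (adjusted p = 0.0237) and in 168FARN (adjusted p = 0.0137). C1qa averaged 10.97 ± 0.09 in 4T1, 10.66 ± 0.26 in 4T07 and 10.44 ± 0.36 in 168FARN, against 11.08 ± 0.08 in 67NR. It was lower in 168FARN than in 67NR (log2 change -0.64, SE 0.19, adjusted p = 0.0223, a call lost without 168FARN array 1, 67NR array 2 or 67NR array 3 with adjusted p up to 0.0878), and higher in 4T1 than in 168FARN (log2 change 0.53, SE 0.19, adjusted p = 0.0445, a call lost in 8 of 12 fits that left out 1 array, up to adjusted p = 0.182, and kept only without 4T07 array 1, 4T07 array 3, 168FARN array 2 or 168FARN array 3). On 168FARN array 1 the 3 chains had their lowest 168FARN levels, 10.03 for C1qa, 11.69 for C1qb and 10.22 for C1qc.

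Vsig4, Folr2, Mrc1 and Siglec1, grouped here with the scavenger, lectin and clearance receptors, were highest in 67NR tumours. Vsig4, a complement receptor of tissue-resident macrophages that binds C3 fragments, measured 6.18, 5.97 and 5.69 in 4T1, 4.46, 4.59 and 4.52 in 4T07 and 6.43, 6.16 and 6.09 in 168FARN, against 8.36, 8.79 and 8.08 in 67NR. The 67NR arrays lay above all others, and the 4T07 arrays below all others and inside the background range. Against 67NR it was lower in 4T1 (log2 change -2.47, SE 0.19, adjusted p = 1.04e-06) and in 168FARN (log2 change -2.19, SE 0.19, adjusted p = 3.91e-06), and it was lower in 4T07 as well (adjusted p = 2.69e-08), with all 9 probesets lower in each. 4T1 and 168FARN did not differ beyond their spread, while 4T07 was lower than 168FARN (adjusted p = 2.51e-05) and 4T1 higher than 4T07 (adjusted p = 0.0014). With 4T07 in the background, the size of these changes is not measured.

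Folr2, the folate receptor that marks a resident-type subset, measured 9.79, 9.82 and 9.19 in 4T1, 8.45, 8.53 and 8.45 in 4T07 and 9.80, 9.64 and 9.40 in 168FARN, against 10.44, 10.55 and 10.42 in 67NR. From high to low its order was 67NR, then 168FARN and 4T1, which did not differ beyond their spread, then 4T07, and the arrays of 4T07 lay below all others. It was lower than in 67NR in 4T1 (log2 change -0.87, SE 0.18, adjusted p = 0.00274), in 4T07 (log2 change -2.0, SE 0.18, adjusted p = 3.56e-06) and in 168FARN (log2 change -0.86, SE 0.18, adjusted p = 0.00311), and higher in 4T1 than in 4T07 (log2 change 1.12, SE 0.18, adjusted p = 0.004). 4T07 was also lower than 168FARN (log2 change -1.14, SE 0.18, adjusted p = 0.000353). All 8 probesets were lower in 4T07 than in 67NR, but only 6 of 8 in 4T1 and in 168FARN.

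Mrc1, the mannose receptor CD206, measured 10.50, 10.21 and 10.38 in 4T1, 9.46, 9.43 and 9.68 in 4T07 and 10.16, 9.67 and 9.57 in 168FARN, against 11.01, 10.95 and 11.11 in 67NR. The 67NR arrays lay above all others. It was lower than in 67NR in 4T1 (log2 change -0.66, SE 0.17, adjusted p = 0.0117, a call lost without 4T1 array 2 with adjusted p = 0.054), in 4T07 (log2 change -1.50, SE 0.17, adjusted p = 2.6e-05) and in 168FARN (log2 change -1.23, SE 0.17, adjusted p = 0.000171), with all 32 probesets lower in each. Between the lung-reaching lines, 4T1 was higher than 4T07 (log2 change 0.84, SE 0.17, adjusted p = 0.0177, a call lost without 4T07 array 2, 4T1 array 1 or 4T1 array 3 with adjusted p up to 0.103). Against 168FARN, 4T1 was higher (log2 change 0.56, SE 0.17, adjusted p = 0.0212, a call lost without 168FARN array 2, 168FARN array 3, 4T1 array 1 or 4T1 array 3 with adjusted p up to 0.0896), but by 0.20 with array 1 as the only 168FARN array (adjusted p = 0.565).

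Siglec1, the sialic acid receptor CD169, measured 9.24, 9.32 and 8.84 in 4T1, 8.49, 8.84 and 8.72 in 4T07 and 9.63, 9.04 and 9.48 in 168FARN, against 9.91, 10.36 and 10.34 in 67NR. The 67NR arrays again lay above all others. It was lower than in 67NR in 4T1 (log2 change -1.07, SE 0.20, adjusted p = 0.0016), in 4T07 (log2 change -1.52, SE 0.20, adjusted p = 9.67e-05) and in 168FARN (log2 change -0.82, SE 0.20, adjusted p = 0.00886). 4T07 was also lower than 168FARN (log2 change -0.70, SE 0.20, adjusted p = 0.0177, a call lost without 168FARN array 1, 168FARN array 3 or 4T07 array 1 with adjusted p up to 0.0682). The 4T1 and 4T07 values did not differ beyond their spread.

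Cd163, the receptor for haemoglobin bound to haptoglobin, measured 7.66, 7.47 and 7.52 in 4T1, 7.71, 7.73 and 7.58 in 4T07 and 6.81, 6.0 and 6.50 in 168FARN, against 7.88, 7.98 and 7.76 in 67NR. Its 67NR arrays lay above all others here too, but of the other lines only 168FARN was called lower than 67NR. No 168FARN array reached the lowest array of any other line. It was lower in 168FARN than in 67NR (log2 change -1.44, SE 0.18, adjusted p = 9.37e-05), and higher than in 168FARN in 4T1 (log2 change 1.11, SE 0.18, adjusted p = 0.000463) and in 4T07 (log2 change 1.24, SE 0.18, adjusted p = 0.00024), with all 23 probesets in 1 direction each time. The other 3 pairs were not called.

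Mertk, a receptor tyrosine kinase for the uptake of apoptotic cells, measured 7.50, 7.64 and 7.37 in 4T1, 7.0, 7.78 and 7.60 in 4T07 and 7.02, 5.57 and 6.16 in 168FARN, against 6.98, 7.19 and 6.88 in 67NR. The 168FARN arrays were spread widely, and its array 1 lay inside the range of the other lines. It was higher than in 168FARN in 4T1 (log2 change 1.25, SE 0.30, adjusted p = 0.00605) and in 4T07 (log2 change 1.21, SE 0.30, adjusted p = 0.0083), and no other pair was called. With array 1 as the only 168FARN array, the change was 0.48 in 4T1 (adjusted p = 0.296) and 0.44 in 4T07 (adjusted p = 0.366), and neither was called.

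Msr1, the class A scavenger receptor for modified lipoproteins, was highest in 4T1, measuring 10.07, 9.98 and 9.79 in 4T1, 9.06, 9.17 and 9.58 in 4T07 and 8.70, 8.78 and 8.78 in 168FARN, against 9.51, 8.81 and 9.21 in 67NR. The 4T1 arrays lay above all others. It was higher in 4T1 than in 67NR (log2 change 0.77, SE 0.19, adjusted p = 0.00999, a call lost without 67NR array 2 with adjusted p = 0.0534) and than in 168FARN (log2 change 1.19, SE 0.19, adjusted p = 0.00037). Marco, a related scavenger receptor, stayed close to the background in all lines, at 5.11 ± 0.26 in 4T1, 5.15 ± 0.22 in 4T07 and 5.15 ± 0.27 in 168FARN, against 5.06 ± 0.17 in 67NR. The 95% interval for the Marco change was -0.35 to 0.47 in 4T1, -0.31 to 0.50 in 4T07 and -0.32 to 0.50 in 168FARN, each against 67NR.

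**Figure D3:**
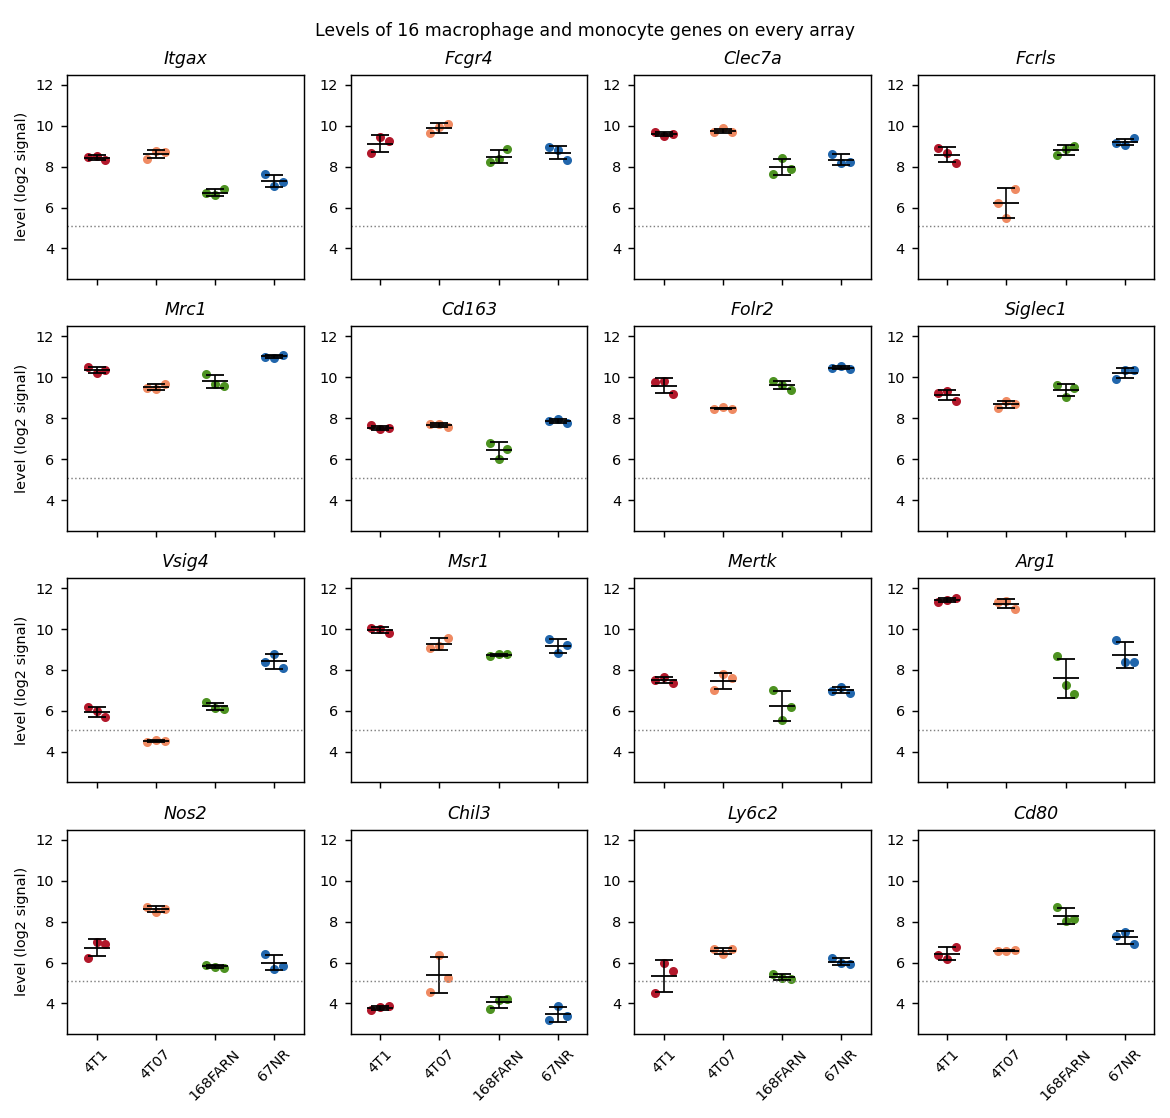
Level (log2 signal) on each array of the 16 genes with an F-test adjusted p under 0.05 and line means at least 1 apart; points are arrays, bars the mean and SD of 3 arrays per line, and the dotted line marks the background limit of 5.08. Vsig4, Folr2, Mrc1 and Siglec1 are highest in 67NR, where Cd163 and Fcrls also have their highest mean. Arg1, Itgax and Clec7a are high in both 4T1 and 4T07, and Nos2 is highest in 4T07.

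Among Fc receptors, their signalling chains and related receptors, Fcrls, Fcgr4 and Clec7a had line means at least 1 apart. Fcrls, an Fc receptor-like gene that in the brain marks microglia, measured 8.92, 8.65 and 8.18 in 4T1, 6.22, 5.47 and 6.93 in 4T07 and 8.55, 8.87 and 8.99 in 168FARN, against 9.16, 9.07 and 9.39 in 67NR. All 4T07 arrays lay below all others, and its array 2 lay closest to the background limit. Against 67NR it was lower in 4T07 (log2 change -3.0, SE 0.30, adjusted p = 1.03e-05), and it was higher in 4T1 than in 4T07 (log2 change 2.38, SE 0.30, adjusted p = 0.00093). It was lower in 4T07 than in 168FARN as well (log2 change -2.60, SE 0.30, adjusted p = 3.26e-05). All 12 probesets moved in 1 direction in 4T07 against 67NR and in 4T1 against 4T07. No pair among 4T1, 168FARN and 67NR was called.

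Fcgr4, an activating receptor for immunoglobulin G of monocytes, macrophages and neutrophils, measured 8.67, 9.46 and 9.25 in 4T1, 9.62, 9.95 and 10.10 in 4T07 and 8.23, 8.39 and 8.86 in 168FARN, against 8.94, 8.79 and 8.31 in 67NR. The 4T07 arrays lay above all others. It was higher in 4T07 than in 67NR (log2 change 1.21, SE 0.24, adjusted p = 0.00251) and than in 168FARN (log2 change 1.40, SE 0.24, adjusted p = 0.000823), with all 5 probesets higher in both. In 4T1 against 67NR it was not called (adjusted p = 0.223), and neither was 4T1 against 4T07 (adjusted p = 0.151).

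Clec7a, which encodes the beta-glucan receptor Dectin-1, measured 9.68, 9.50 and 9.58 in 4T1, 9.70, 9.86 and 9.68 in 4T07 and 7.66, 8.41 and 7.90 in 168FARN, against 8.64, 8.16 and 8.22 in 67NR. The 6 arrays of the lung-reaching lines lay above all 6 others. It was higher than in 67NR in 4T1 (log2 change 1.25, SE 0.19, adjusted p = 0.000374) and in 4T07 (log2 change 1.41, SE 0.19, adjusted p = 0.000138), and than in 168FARN in 4T1 (log2 change 1.59, SE 0.19, adjusted p = 3.97e-05) and 4T07 (log2 change 1.76, SE 0.19, adjusted p = 2.12e-05). 4T1 was not called against 4T07 (adjusted p = 0.803), and 168FARN was not called against 67NR (adjusted p = 0.219).

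Fcgr3, an activating receptor of lower affinity, averaged 9.95 ± 0.07 in 4T1, 9.70 ± 0.22 in 4T07 and 9.0 ± 0.07 in 168FARN, against 9.98 ± 0.28 in 67NR. It was lower in 168FARN than in 67NR (log2 change -0.98, SE 0.17, adjusted p = 0.000811), with all 8 probesets lower. It was higher than in 168FARN in 4T1 (log2 change 0.96, SE 0.17, adjusted p = 0.000709) and in 4T07 (log2 change 0.70, SE 0.17, adjusted p = 0.00642). Fcgr1, the high-affinity receptor, averaged 9.92 ± 0.21 in 4T1, 9.90 ± 0.24 in 4T07 and 9.28 ± 0.46 in 168FARN, against 9.62 ± 0.15 in 67NR, and was higher than in 168FARN in 4T1 (log2 change 0.64, SE 0.22, adjusted p = 0.0387, a call lost without 168FARN array 1, 168FARN array 3, 4T1 array 1 or 4T1 array 3 with adjusted p up to 0.158). In 4T07 against 168FARN its change was 0.62 (SE 0.22, adjusted p = 0.0497, a call lost in 10 of 12 fits that left out 1 array, up to adjusted p = 0.192, and kept only without 4T07 array 1 or 168FARN array 2).

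Fcer1g, the common gamma chain that Fc receptors signal through, averaged 10.77 ± 0.19 in 4T1, 10.67 ± 0.17 in 4T07 and 10.21 ± 0.21 in 168FARN, against 10.66 ± 0.10 in 67NR. It was higher in 4T1 than in 168FARN (log2 change 0.56, SE 0.16, adjusted p = 0.0173, a call lost without 168FARN array 1 or 4T1 array 2 with adjusted p up to 0.0822). In 4T07 against 168FARN its change was 0.46 (SE 0.16, adjusted p = 0.0485, a call lost in 11 of 12 fits that left out 1 array, up to adjusted p = 0.168, and kept only without 4T07 array 1). Tyrobp, the adaptor DAP12, averaged 9.74 ± 0.18 in 4T1, 9.49 ± 0.19 in 4T07 and 9.21 ± 0.26 in 168FARN, against 9.32 ± 0.41 in 67NR and no pair was called. In 4T1 against 168FARN its change was 0.53 (SE 0.21, adjusted p = 0.0749), and it was called higher under 6 of 21 alternatives (adjusted p down to 0.00744, with the probeset mean). Trem2, a lipid-sensing receptor that signals through DAP12, averaged 8.54 ± 0.34 in 4T1, 8.01 ± 0.28 in 4T07 and 8.58 ± 0.12 in 168FARN, against 8.50 ± 0.14 in 67NR, and its only call was 4T07 against 168FARN, at -0.58 (SE 0.19, adjusted p = 0.0386, a call lost without 168FARN array 1, 168FARN array 2, 168FARN array 3, 4T07 array 1 or 4T1 array 1 with adjusted p up to 0.141).

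Both enzymes that compete for arginine differed widely between the lines, and in different ways. Arg1, arginase 1, which turns arginine into ornithine and urea, measured 11.31, 11.40 and 11.51 in 4T1, 11.33, 11.39 and 11.00 in 4T07 and 8.66, 7.27 and 6.83 in 168FARN, against 9.48, 8.37 and 8.39 in 67NR. The 6 arrays of the lung-reaching lines lay between 11.00 and 11.51, above all 6 others, whose highest was 9.48. Against 67NR it was higher in 4T1 (log2 change 2.66, SE 0.39, adjusted p = 0.00026) and in 4T07 (log2 change 2.49, SE 0.39, adjusted p = 0.000418), with all 10 probesets higher in both. These changes are 6.32-fold in 4T1 and 5.63-fold in 4T07.

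Against 168FARN, Arg1 was higher in 4T1 (log2 change 3.82, SE 0.39, adjusted p = 1.02e-05) and in 4T07 (log2 change 3.65, SE 0.39, adjusted p = 1.82e-05), while 4T1 and 4T07 did not differ beyond their spread. The 168FARN arrays had an SD of 0.96, with array 1 at 8.66. In 168FARN against 67NR the change was -1.16 (SE 0.39, adjusted p = 0.0467, a call lost in 11 of 12 fits that left out 1 array, up to adjusted p = 0.188, and kept only without 168FARN array 1). With array 1 as the only 168FARN array it was -0.08 (adjusted p = 0.929).

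Nos2, the inducible nitric oxide synthase of activated macrophages, measured 6.24, 7.02 and 6.92 in 4T1, 8.74, 8.45 and 8.61 in 4T07 and 5.90, 5.77 and 5.75 in 168FARN, against 6.40, 5.70 and 5.85 in 67NR. The 4T07 arrays lay above all others. It was higher in 4T07 than in 67NR (log2 change 2.62, SE 0.22, adjusted p = 2.36e-06), 6.13-fold, with all 29 probesets higher, and than in 168FARN (log2 change 2.79, SE 0.22, adjusted p = 1.19e-06). Between the lung-reaching lines it was lower in 4T1 than in 4T07 (log2 change -1.87, SE 0.22, adjusted p = 0.000596). In 4T1 it was higher than in 67NR (log2 change 0.75, SE 0.22, adjusted p = 0.0269, a call lost without 4T1 array 2, 4T1 array 3, 67NR array 2 or 67NR array 3 with adjusted p up to 0.118) and than in 168FARN (log2 change 0.92, SE 0.22, adjusted p = 0.00615).

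Chil3 and Retnla, further genes that alternatively activated mouse macrophages turn on beside Arg1 and Mrc1, were near the background. Chil3, the chitinase-like protein Ym1, measured 3.70, 3.82 and 3.88 in 4T1, 4.58, 6.35 and 5.25 in 4T07 and 3.73, 4.19 and 4.23 in 168FARN, against 3.17, 3.87 and 3.39 in 67NR. The 3 lines other than 4T07 lay inside the background range, and so did 4T07 array 1. 4T07 was called against 67NR (adjusted p = 0.00106) and 168FARN (adjusted p = 0.00968), and the size of these changes is not measured. 4T1 against 4T07 was called as well (adjusted p = 0.0257), but not without 4T07 array 2 or any of the 4T1 arrays (adjusted p up to 0.108). Retnla, the resistin-like protein Fizz1, averaged 4.12 ± 0.95 in 4T1, 5.39 ± 1.12 in 4T07 and 4.31 ± 0.49 in 168FARN, against 4.72 ± 0.40 in 67NR, and no pair was called. Its highest array, at 6.67, was 4T07 array 2, which also had the highest Chil3.

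Apoe, a lipid carrier made by tumour macrophages and by other cells, averaged 13.04 ± 0.03 in 4T1, 12.73 ± 0.25 in 4T07 and 12.60 ± 0.16 in 168FARN, against 13.24 ± 0.08 in 67NR. It was lower than in 67NR in 168FARN (log2 change -0.63, SE 0.15, adjusted p = 0.00809) and in 4T07 (log2 change -0.51, SE 0.15, adjusted p = 0.0269, a call lost without 4T07 array 1, 4T07 array 2, 67NR array 1 or 67NR array 2 with adjusted p up to 0.0861). All 11 probesets were lower in each. In 4T1 against 168FARN the change was 0.44 (SE 0.15, adjusted p = 0.0432, a call lost in 9 of 12 fits that left out 1 array, up to adjusted p = 0.137, and kept only without 4T07 array 1, 4T07 array 3 or 168FARN array 3).

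Lysozyme genes, which encode an antibacterial enzyme of macrophages and neutrophils, had line means less than 1 apart. Lyz2 averaged 12.56 ± 0.06 in 4T1, 12.09 ± 0.31 in 4T07 and 12.27 ± 0.19 in 168FARN, against 12.55 ± 0.03 in 67NR, and no pair was called. In 4T07 against 67NR its change was -0.46 (SE 0.17, adjusted p = 0.0604), and it was called lower under 5 of 21 alternatives. Lyz1 averaged 10.43 ± 0.24 in 4T1, 9.83 ± 0.13 in 4T07 and 10.61 ± 0.21 in 168FARN, against 10.39 ± 0.06 in 67NR, and was lower in 4T07 than in 168FARN (log2 change -0.78, SE 0.16, adjusted p = 0.00273) and than in 67NR (log2 change -0.56, SE 0.16, adjusted p = 0.0223, a call lost without 4T07 array 1, 4T07 array 3, 67NR array 1 or 67NR array 2 with adjusted p up to 0.0749). Lyz1 and Lyz2 are neighbouring, near-identical genes. The 9 probesets that carry both symbols were left out of both, and how far the remaining 5 and 6 tell the genes apart was not tested.

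Ly6c2, part of the Ly6C antigen of inflammatory monocytes, measured 4.49, 5.97 and 5.59 in 4T1, 6.67, 6.40 and 6.65 in 4T07 and 5.45, 5.22 and 5.18 in 168FARN, against 6.22, 5.99 and 5.94 in 67NR. The 4T07 arrays lay above all others, and 1 array of 4T1 lay in the background. It was higher in 4T07 than in 168FARN (log2 change 1.29, SE 0.28, adjusted p = 0.0041), and lower in 4T1 than in 4T07 (log2 change -1.22, SE 0.28, adjusted p = 0.0391, a call lost in 10 of 12 fits that left out 1 array, up to adjusted p = 0.103, and kept only without 4T1 array 2 or 168FARN array 1). The gene's 5 probesets were each higher in 4T07 than in 168FARN, by 0.56 to 1.00, and the mean of the probesets in place of their median gave 0.79. On the 4 probesets shared with the near-identical Ly6c1, left out of the gene level, the medians were 10.68 ± 0.43 in 4T1, 11.86 ± 0.16 in 4T07 and 10.94 ± 0.37 in 168FARN, against 11.19 ± 0.19 in 67NR.

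The ligands that co-stimulate T cells moved in opposite directions against 168FARN. Cd80 measured 6.37, 6.17 and 6.78 in 4T1, 6.56, 6.58 and 6.59 in 4T07 and 8.70, 8.01 and 8.11 in 168FARN, against 7.31, 7.47 and 6.89 in 67NR. The 168FARN arrays lay above all others. It was higher in 168FARN than in 67NR (log2 change 1.05, SE 0.22, adjusted p = 0.00325), the only member called higher in that comparison, with all 7 probesets higher. It was lower than in 168FARN in 4T1 (log2 change -1.83, SE 0.22, adjusted p = 3.24e-05) and in 4T07 (log2 change -1.69, SE 0.22, adjusted p = 7.52e-05). Against 67NR it was lower in 4T1 (log2 change -0.79, SE 0.22, adjusted p = 0.0182, a call lost without 4T1 array 1, 4T1 array 2, 67NR array 1 or 67NR array 2 with adjusted p up to 0.0826). In 4T07 against 67NR the change was -0.65 (SE 0.22, adjusted p = 0.0448, a call lost in 7 of 12 fits that left out 1 array, up to adjusted p = 0.169, and kept only without 4T1 array 2, 4T1 array 3, 168FARN array 1, 168FARN array 2 or 67NR array 3).

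Cd86, the second ligand, averaged 7.80 ± 0.11 in 4T1, 7.84 ± 0.22 in 4T07 and 7.04 ± 0.26 in 168FARN, against 7.39 ± 0.30 in 67NR. It was higher than in 168FARN in 4T1 (log2 change 0.76, SE 0.19, adjusted p = 0.00729) and in 4T07 (log2 change 0.81, SE 0.19, adjusted p = 0.00598). No pair with 67NR was called.

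**Figure D4:**
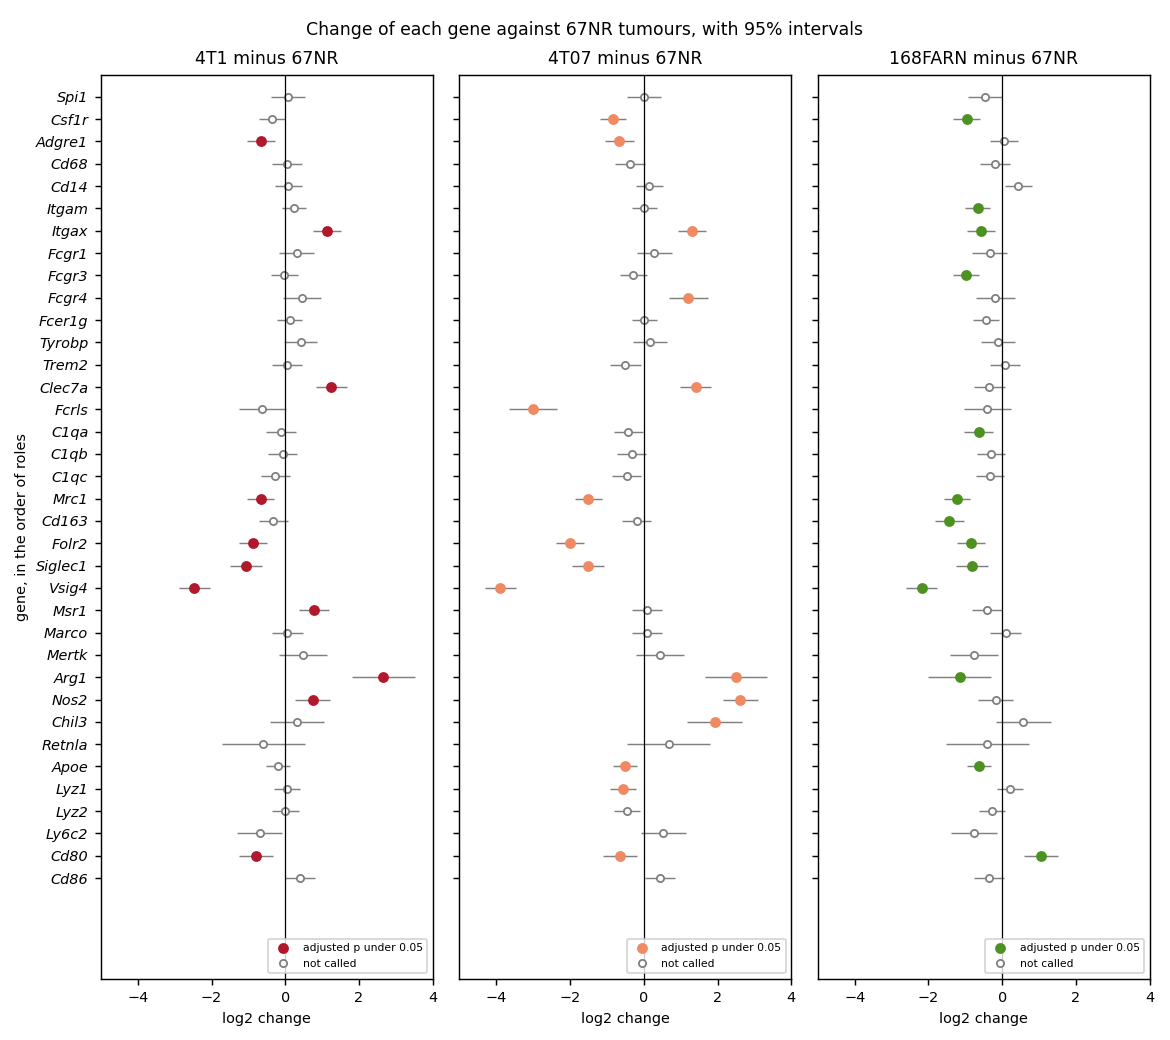
Log2 change of each of the 36 genes in 4T1, 4T07 and 168FARN tumours against 67NR tumours, with 95% intervals from limma; filled points are called at adjusted p under 0.05 and open points are not. Vsig4 lies farthest left in all 3 panels, and Arg1 lies to the right of 0 in 4T1 and 4T07 and to the left in 168FARN.

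Single probesets rarely left their gene. In the exon test of limma's diffSplice, 325 probesets of 26 members were tested and 6 were called in at least 1 comparison (1.85%), beside 2.29% of the 110320 probesets tested. They lie in Msr1 (2 probesets), Arg1, Itgax, Lyz1 and Siglec1. The Arg1 probeset 4496471 measured 10.24 ± 0.12 in 4T1 and 9.90 ± 0.29 in 4T07, against 8.74 ± 0.10 in 168FARN. It was thus higher in the lung-reaching lines like its gene, but by less, with a change relative to the gene of -2.81 in 4T1 (adjusted p = 4.3e-05) and -2.89 in 4T07 (adjusted p = 3.64e-05). The Siglec1 probeset 5535008 measured 6.06 ± 0.21 in 4T07 against 6.34 ± 0.21 in 67NR, where its gene fell by 1.52 (relative change 1.25, adjusted p = 0.000175). A splicing index called only 2 probesets, and the diffSplice test called 10 without 4T07 array 3 and 3 without 168FARN array 3. Which exons these probesets cover was not analysed here.

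Of 36 further macrophage and monocyte genes measured, 6 were higher (16.7%, beside 9.38% of all genes) and 8 lower (22.2%, beside 13%) in 4T1 than in 67NR. In 4T07 against 67NR, 6 were higher (16.7%, beside 11%) and 9 lower (25%, beside 12.7%). In 168FARN against 67NR, 5 were higher (13.9%, beside 13.5%, and so near the share of all genes) and 9 lower (25%, beside 11.2%). Against 168FARN, 11 were higher (30.6%, beside 11.9%) and 6 lower (16.7%, beside 19.3%) in 4T1, and 8 were higher (22.2%, beside 11.4%) and 6 lower (16.7%, beside 16.8%) in 4T07. In 4T1 against 4T07, 2 were higher (5.56%, beside 0.552%) and 4 lower (11.1%, beside 1.82%). Their median changes were 0.03, -0.11, -0.18, 0.13, 0.08 and 0.04 in the same order. Gpnmb, a transmembrane glycoprotein of lipid-laden macrophages that tumour cells can also make, was called in every comparison, with log2 changes of 1.62 in 4T1, 3.80 in 4T07 and 6.18 in 168FARN against 67NR, -4.56 in 4T1 and -2.37 in 4T07 against 168FARN, and -2.19 in 4T1 against 4T07.

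Lyve1, a hyaluronan receptor of lymphatic vessels and resident macrophages, was lower than in 67NR in every other line, with log2 changes of -2.49 in 4T1, -3.02 in 4T07 and -2.11 in 168FARN. The fractalkine receptor Cx3cr1 changed by -1.89 in 4T07, the scavenger receptor Cd36 by -1.67 in 4T1, and F13a1, the coagulation factor XIII chain of monocytes, by -1.88 in 168FARN, each against 67NR. Plac8, a gene of circulating monocytes, changed by 2.30 in 4T07 against 67NR and by -1.41 in 4T1 against 4T07, and the transcription factor Klf4 changed by -1.43 in 4T1 against 4T07. Tmem119, which marks microglia in the brain and is also active in bone-forming and stromal cells, was higher in 168FARN than in 67NR by 2.97, and changed by -2.35 in 4T1 and -2.37 in 4T07 against 168FARN.

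Of 10 growth factors, chemokines and related secreted genes that act on monocytes and macrophages, 2 were higher and 4 lower in 4T1 than in 67NR (9.38% and 13% of all genes), 2 and 5 in 4T07 (11% and 12.7%), and 1 and 3 in 168FARN (13.5% and 11.2%). Ccl2, the main attractant of monocytes, was lower in both lung-reaching lines than in the other lines. Its change in 4T1 was -1.84 against 67NR and -2.29 against 168FARN, and in 4T07 it was -1.66 against 67NR and -2.10 against 168FARN. Ccl7 was highest in 168FARN: it changed by -1.59 in 4T1 and -1.83 in 4T07 against 168FARN, and by -0.83 in 4T07 and 1.00 in 168FARN against 67NR. Ccl8 changed by -1.22 in 4T1 and -1.33 in 168FARN against 67NR, by 1.81 in 4T07 against 168FARN, and by -1.70 in 4T1 against 4T07. Csf3, the growth factor of granulocytes, was higher than in 67NR by 2.09 in 4T1 and 1.72 in 4T07, and than in 168FARN by 2.0 in 4T1 and 1.63 in 4T07. It was not called between 4T1 and 4T07. Csf1 changed by -0.73 in 168FARN against 67NR and by 0.75 in 4T1 against 168FARN. Il34 changed by -0.78 in 4T1 and -1.36 in 4T07 against 67NR, and by -0.88 in 4T07 against 168FARN. Cx3cl1 changed by -0.79 in 4T1, -1.27 in 4T07 and -0.99 in 168FARN against 67NR. C3 changed by 0.72 in 4T1 and 1.56 in 4T07 against 67NR, by 1.19 in 4T07 against 168FARN and by -0.85 in 4T1 against 4T07.

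Markers of other blood cells moved beside these genes. The mean level of 14 neutrophil genes was 7.61 to 7.85 in 4T1, 8.16 to 8.52 in 4T07 and 6.09 to 6.76 in 168FARN, against 5.69 to 6.43 in 67NR. Of these, 9 were higher in 4T1 (9.38% of all genes) and 13 in 4T07 (11% of all genes) than in 67NR, and none lower, in the lines where Itgax, Clec7a and Arg1 were higher. Between 4T1 and 4T07, 2 were lower in 4T1 (14.3%, beside 1.82% of all genes) and none higher. The summed signal of the 14 genes on the linear scale was 7686 to 11098 in 4T1, 7209 to 11598 in 4T07 and 1432 to 2522 in 168FARN, against 1260 to 1892 in 67NR. Lcn2 had the highest mean level of the list in 4T1 (12.45 ± 0.38) and in 4T07 (11.63 ± 0.77), and contributes most to the sum there. The sum therefore does not compare the neutrophil content of 4T1 and 4T07. None of the 14 genes was in the background in 4T1 or 4T07, against 3 in 168FARN (Mmp8, Ngp and Trem1) and 4 in 67NR (Mmp8, Ngp, Mpo and Il1r2). Neutrophils of mice also express Itgam, Clec7a and Fcgr4. The mean level of 6 mast cell genes was 4.94 to 5.32 in 4T1, 5.02 to 5.37 in 4T07 and 6.44 to 6.94 in 168FARN, against 6.30 to 7.36 in 67NR, with 5 lower in 4T1 (13% of all genes) and 6 lower in 4T07 (12.7% of all genes) than in 67NR. In both 4T1 and 4T07, 3 of these 6 (Tpsb2, Fcer1a and Ms4a2) were in the background, so the size of their changes is not measured. Ms4a2 was in the background in 168FARN and 67NR too. The mean level of 12 pan-leukocyte genes was 9.73 to 9.80 in 4T1, 9.61 to 10.02 in 4T07 and 9.09 to 9.43 in 168FARN, against 9.38 to 9.58 in 67NR. Of these, 4 were lower in 168FARN than in 67NR (33.3%, beside 11.2% of all genes) and 1 higher (8.33%, beside 13.5%).

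For 12 dendritic cell genes, some of which are active in the same cells as Itgax, the mean level was 6.89 to 7.15 in 4T1, 6.87 to 7.24 in 4T07 and 6.53 to 6.83 in 168FARN, against 6.81 to 7.03 in 67NR. Of these, 1 was higher in 4T1 (8.33%, beside 9.38% of all genes) and 2 in 4T07 (16.7%, beside 11%) than in 67NR. Mean levels of 11 endothelial genes were 8.10 to 8.55 in 4T1, 8.0 to 8.49 in 4T07 and 7.77 to 7.97 in 168FARN, against 8.42 to 8.79 in 67NR. In 168FARN against 67NR, 12 of the 36 macrophage and monocyte genes were lower (33.3%, beside 11.2% of all genes). There 8 of these 11 endothelial genes were lower (72.7%) and none higher, with a median change of -0.74. For 15 T and NK cell genes the mean level was 6.20 to 6.64 in 4T1, 6.63 to 7.36 in 4T07 and 6.04 to 6.20 in 168FARN, against 6.59 to 6.84 in 67NR. In 168FARN against 67NR, 4 of them were lower (26.7%, beside 11.2% of all genes) and none higher, with a median change of -0.35. For 7 B cell genes the mean level was 5.44 to 7.34 in 4T1, 6.71 to 8.08 in 4T07 and 5.64 to 6.51 in 168FARN, against 5.65 to 5.90 in 67NR, with none called in 168FARN against 67NR. Mean levels of the 11 epithelial genes were 8.99 to 9.41 in 4T1, 8.32 to 9.72 in 4T07 and 6.80 to 6.90 in 168FARN, against 5.91 to 6.53 in 67NR. This list does not measure tumour cell content, since all tumours grew from carcinoma lines and its genes differed unevenly between them. Krt8 averaged 11.44 ± 0.09 in 168FARN and 6.60 ± 0.61 in 67NR, but Krt18 averaged 7.22 ± 0.20 and 6.14 ± 0.90. Mean levels of 12 fibroblast genes were 9.07 to 9.41 in 4T1, 9.16 to 9.71 in 4T07 and 10.26 to 10.34 in 168FARN, against 8.33 to 8.81 in 67NR. The part of any of these cells in the changes of the 36 genes was not tested.

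**Figure D5:**
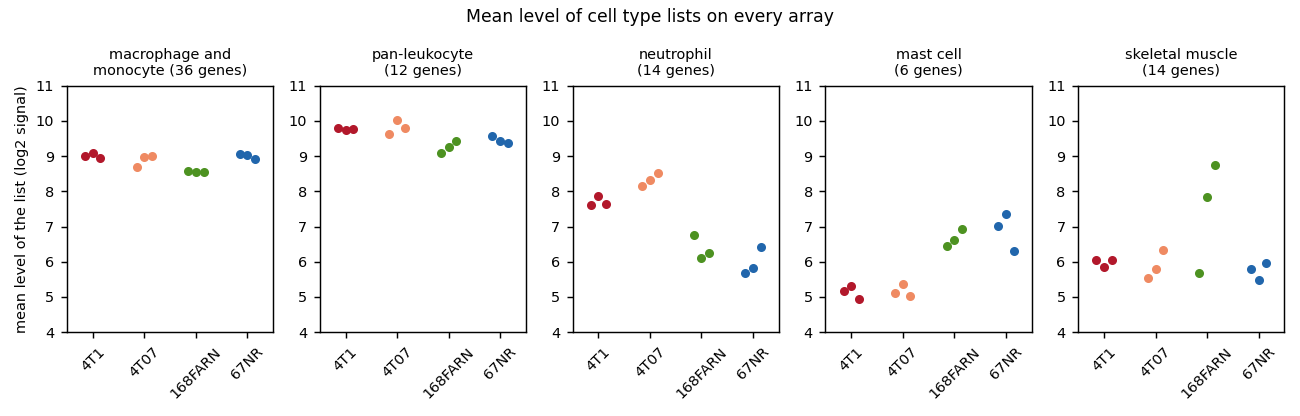
Mean level (log2 signal) on each array of the 36 macrophage and monocyte genes and of 4 lists of other cell types; points are arrays and lines of tumours run along the horizontal axis. The 36 genes span 8.56 to 9.08 over the 12 arrays, while the neutrophil list spans 5.69 to 8.52.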

How the data were processed

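The 12 samples are Affymetrix mouse exon arrays, 1 array per sample, of total RNA from primary tumours, isolated with Trizol and biotin-labelled per the labels' protocols. The authors deposited 1 log2 signal for each probeset and array, a scale read from the range of the values. No adjustment was made to these values, whose summarization and normalization are not given in the sources used here. No value column was left out. Precision is limited by having 3 arrays per line.

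The platform annotation gave each probeset its gene, and 3 member symbols were updated through the RefSeq genes of GRCm38.p6. Gene levels were medians over at least 3 probesets. With limma 3.58.1 in R 4.3.3, lmFit and eBayes were run on all 12 arrays with 1 mean per line, and every adjusted p is from limma with Benjamini-Hochberg adjustment over all genes or probesets of a comparison. The exon test used probesets above the 25th percentile in genes above the 50th percentile with at least 4 such probesets. Both tests were tried on simulated data. A gene was described on every array where its F-test was called and its line means lay at least 1 apart. Of the other macrophage lists some called genes were named, and not in every comparison those with the largest changes. Members and lists were chosen with earlier results of these data known. Replicate numbers were not used to pair the arrays. Of 18 same-numbered pairs from different lines, 3 had deviations correlated above 0.1. Differently numbered pairs were not compared, so whether the numbers mark a batch was not tested. Alternatives were the probeset mean, quantile normalization, equal array medians, dim probesets left out, genes with 1 probeset, a mean-variance trend, fits of 2 lines, a replicate block, each array left out, a single 168FARN array and, for the exon test, a splicing index and brighter probesets.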

Additional observations from a re-analysis of the deposited data

How the results depend on the processing

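Of the 87 changes called among members, none turned its sign under any of the 12 fits that left out 1 array or the 9 other alternatives, 50 were called under all that could be run, and 63 under every fit that left out 1 array. With array 1 as the only 168FARN array, called members fell to 8 in 168FARN against 67NR and 14 in 4T07 against 168FARN, and over all genes 1847 were called in 168FARN against 67NR (3710 with all arrays), 2112 in 4T07 against 168FARN (4248) and 2470 in 4T1 against 168FARN (4688), with fewer arrays in that fit. Over the fits without 1 array, called members in 4T1 against 4T07 ranged from 4 to 8, and called member probesets in the exon test from 3 to 10. Over all genes, 4T1 against 4T07 called 357, and 156 without 4T1 array 1, 158 without 4T07 array 2, 224 without 4T1 array 3 and 233 without 4T1 array 2; the cause was not tested. The splicing index called 2 member probesets. The replicate number as a block called 27 members over the 4 lines, 11, 15 and 15 in 4T1, 4T07 and 168FARN against 67NR, 19 and 23 in 4T1 and 4T07 against 168FARN, 6 in 4T1 against 4T07, and 5 member probesets. That block lost Cd80 in 4T07 against 67NR and Ly6c2 in 4T1 against 4T07, and gained Spi1 in 4T1 against 168FARN (adjusted p = 0.0158), 4T07 against 168FARN (0.033) and 168FARN against 67NR (0.0396), and Fcer1g in 168FARN against 67NR (0.0407). Of the 129 changes not called among members, 31 were called under at least 1 alternative, 12 of them under 1 only. The 6 gained under 5 or more were Spi1, Fcgr4 and Tyrobp in 4T1 against 168FARN, Msr1 in 4T07 against 168FARN, Fcer1g in 168FARN against 67NR and Lyz2 in 4T07 against 67NR. The probeset mean called the most members, 32 over the 4 lines (25 by the median) and 19 in 168FARN against 67NR (13 by the median). Chil3 and Retnla had no value once dim probesets were left out. Equal array medians moved the median change of all genes by under 0.1 in every comparison.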

Other observations

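Probesets that could not be given to 1 gene were set beside their members. The 11 probesets with the older symbol Mgl1, a synonym of both Clec10a and Llgl1, had a median of 6.48 ± 0.07 in 4T1, 6.44 ± 0.58 in 4T07 and 5.97 ± 0.19 in 168FARN, against 6.71 ± 0.12 in 67NR. The 4 probesets shared by Fcgr3 and the inhibitory receptor Fcgr2b had 10.75 ± 0.09 in 4T1, 10.67 ± 0.43 in 4T07 and 9.93 ± 0.24 in 168FARN, against 10.89 ± 0.15 in 67NR, so 168FARN was lowest here as it was for Fcgr3 alone. The 8 probesets listed for Lyz1 and then Lyz2 had 13.12 ± 0.01 in 4T1, 12.61 ± 0.13 in 4T07 and 12.90 ± 0.08 in 168FARN, against 13.15 ± 0.03 in 67NR, with every 4T07 array below every array of the other lines. These values were not tested.

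Within a line, the members' median SD over 3 arrays was 0.18 in 4T1, 0.22 in 4T07 and 0.26 in 168FARN, against 0.15 in 67NR, and for all genes it was 0.16, 0.25 and 0.21, against 0.17. An SD above 0.5 was found for 2 members in 4T1, 3 in 4T07 and 2 in 168FARN, against 1 in 67NR.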
